A study of Mus musculus with 10 samples.

Results

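The 10 genes described here are *Trim63*, *Trim54*, *Trim55*, *Fbxo32*, *Fbxo30*, *Mul1*, *Foxo1*, *Foxo3*, *Foxo4* and *Klf15*, chosen by name as the ubiquitin ligases of muscle atrophy and the transcription factors tied to them, out of 25700 genes listed in the counts. All 10 were measured and all 10 passed the filter on low counts, as did 14410 genes in all. Tibialis anterior (TA) muscle came from 5 Pax7Cre mice and 5 miR-501KO mice, and its mRNA was sequenced at day 6 after cardiotoxin (CTX) was injected into the muscle to start regeneration. All mice were C57BL/6 males of 12 weeks. The controls are labelled wild type and carry Pax7Cre, with no floxed miR-501 named, while the miR-501KO mice, labelled miR-501 -/-, carry Pax7Cre and a floxed miR-501 on their single X chromosome. Both groups therefore share the Cre driver, and no uninjured muscle was analysed here. Pax7 is a marker of muscle stem cells, so the deletion is directed to these cells and their descendants, whereas the RNA was taken from the whole muscle with its fibers, immune cells, fibroblasts and vessels. A lower value in such a sample may come from fewer cells of a type or from less RNA per cell, which cannot be told apart. The miR-501 precursor is not among the listed genes, so its deletion was not checked here.

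In muscle that loses mass, ubiquitin ligases mark sarcomeric and regulatory proteins for the proteasome. The FoxO factors, held in the cytoplasm by Akt when insulin or IGF signalling is active, switch on the genes of the 2 best known ligases, atrogin-1 (*Fbxo32*) and MuRF1 (*Trim63*). Glucocorticoids act on the same genes, directly through their receptor and through the transcription factor KLF15. The same ligases also turn over proteins of growing and remodelling fibers, and regenerating muscle holds new fibers of small size beside fibers that survived the toxin.

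The sequences that connect these genes to miR-501 and to their own regulators are given first. The mature miR-501-3p, from RefSeq on GRCm38.p6 (chrX:7241270-7241291, minus strand), is shown with its seed, bases 2 to 8, in capitals. The letters GGTGCAT, which pair with the seed, were searched in the annotated 3′ untranslated regions (UTR) of GRCm38 and were found in 2 of the 10 genes, *Foxo3* and *Trim55*, against 8.21% of the 14119 tested genes with an annotated 3′ UTR. The *Foxo3* match lies at chr10:42184023-42184029 on the minus strand, at base 2302 of a UTR of 4490 bases. The *Trim55* match lies at chr3:19691889-19691895 on the plus strand, at base 290 of a UTR of 822 bases. Both are printed with the match in capitals, and a match is a description of the letters and not a measured site.
miR-501-3p: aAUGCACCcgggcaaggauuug
Foxo3 3′ UTR: gacaaccctccGGTGCATtcccctagtct
Trim55 3′ UTR: tgtgtaggtgtGGTGCATgcctgtgtatc

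RefSeq's promoter table of GRCm38.p6, from 250 bases before to 50 bases after each start, held 7 of the 10 genes, without *Fbxo32*, *Foxo4* and *Trim55*. The core FoxO motif GTAAACA, searched on both strands, was present in 1 of the 7, *Trim63*, and in 3.65% of 32851 promoters. The glucocorticoid half-site AGAACA was present in 2 of the 7, *Trim63* and *Trim54*, and in 19.0% of all promoters. In *Trim63* the 2 matches are on the minus strand, starting 200 and 194 bases before the start, so that they abut without overlap. They form the capitals in the *Trim63* promoter (chr4:134314870-134315119, plus strand), which is shown because no other gene of the 7 holds both motifs. The *Trim54* promoter (chr5:31116362-31116611, plus strand) is shown for comparison, with its half-site, 222 bases before the start, in capitals.
Trim63 promoter: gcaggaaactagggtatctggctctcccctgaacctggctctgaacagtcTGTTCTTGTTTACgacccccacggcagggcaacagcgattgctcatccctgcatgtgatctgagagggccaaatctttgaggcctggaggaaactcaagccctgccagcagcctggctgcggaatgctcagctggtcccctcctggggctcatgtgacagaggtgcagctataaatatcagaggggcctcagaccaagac
Trim54 promoter: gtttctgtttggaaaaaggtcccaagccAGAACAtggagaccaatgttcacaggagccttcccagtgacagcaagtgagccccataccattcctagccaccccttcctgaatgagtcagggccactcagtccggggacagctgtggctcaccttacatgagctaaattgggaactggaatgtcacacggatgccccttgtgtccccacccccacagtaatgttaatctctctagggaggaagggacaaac

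The total count per mouse was 18609222 to 22064583 in Pax7Cre and 20046670 to 24753258 in miR-501KO, so each ligase and FoxO gene had 385 to 2080 counts per mouse and *Klf15* 87 to 240. Intervals below come from the spread between mice and hold the counting error within it. Levels are normalized counts on the CPM scale (counts relative to the library total), scaled between mice by TMM. Markers of mature fibers, regenerating fibers, macrophages, fibro-adipogenic and endothelial cells were all detected in every mouse. The summed level of 20 mature fiber markers, led by *Ckm*, was 16837 to 44200 CPM in Pax7Cre and 24699 to 33224 CPM in miR-501KO, with Pax7Cre mouse 4 lowest and Pax7Cre mouse 2 highest of all 10 mice and miR-501KO mouse 4 highest of its genotype. The mitochondrial share of counts was also lowest in Pax7Cre mouse 4, at 6.59%, and highest in Pax7Cre mouse 2, at 14.0%. The summed level of 8 regenerating fiber markers, led by *Actc1*, was 5312 to 7737 CPM in Pax7Cre and 5249 to 7686 CPM in miR-501KO, and it was lowest in Pax7Cre mouse 2 and miR-501KO mouse 4, the mice with the highest mature fiber sum of each genotype. The sums over 9 macrophage, 6 fibro-adipogenic and 5 endothelial markers, led by *Lyz2*, *Col3a1* and *Cdh5*, ran over 6134 to 8166, 13759 to 18698 and 587 to 750 CPM in Pax7Cre and over 6230 to 7381, 14717 to 17780 and 586 to 731 CPM in miR-501KO. Results that rest on these mice are given below with and without them.

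Whether loss of miR-501 shifted the atrophy program in the regenerating muscle was asked by comparing the genotypes. None of the 10 genes passed the test between miR-501KO and Pax7Cre. By edgeR's quasi-likelihood test with Benjamini-Hochberg adjustment, 0 of the 10 passed an adjusted p of 0.05, as did 0.0% of all genes tested, and 0 of the 10 passed an unadjusted p of 0.05, against 1.05% of all genes (151 genes, of which 55 were higher and 96 lower). DESeq2 likewise called 0 genes at an adjusted p of 0.05, with 52 higher and 98 lower at the unadjusted one. The 2 genotypes overlapped for each of the 10 genes, while 0.139% of all tested genes had groups that did not overlap. The smallest unadjusted p was 0.27, for *Foxo4*, and the adjusted p was 1.00 for each gene. All 10 log2 fold changes, miR-501KO over Pax7Cre, lay below 0, between -0.097 and -0.00053 with a median of -0.036, where 52.1% of all tested genes lay below 0 and their median was -0.0042. The shared sign depended on which mice were included. Without Pax7Cre mouse 2, 6 of the 10 lay above 0, and without miR-501KO mouse 1 it was 5. Without Pax7Cre mouse 3, 4 or 5 or miR-501KO mouse 2, 3 or 4 it was 1 to 3, and it was 0 only without Pax7Cre mouse 1 or miR-501KO mouse 5.

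**Figure D1:**
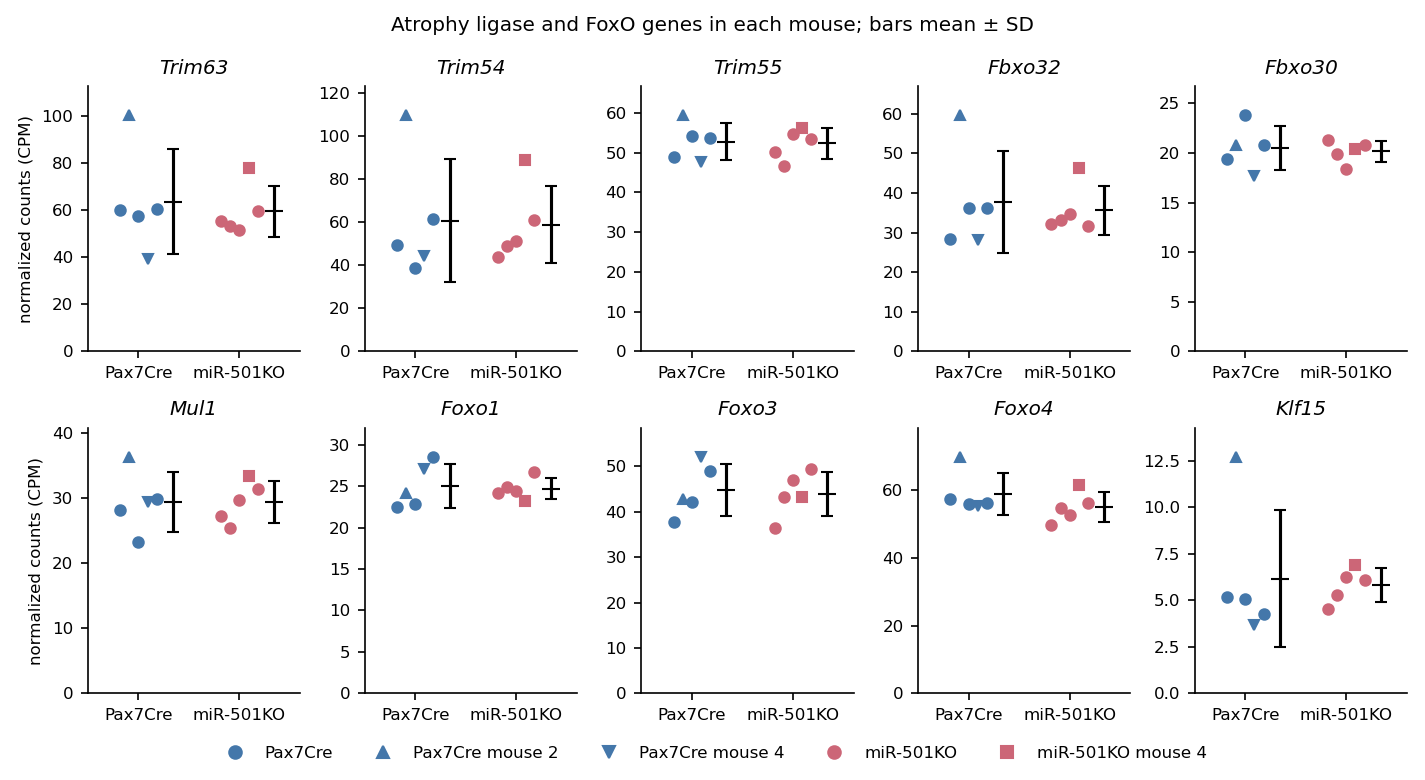
Normalized counts (CPM, vertical axes from 0) of the 10 genes in each of the 5 Pax7Cre mice (blue) and 5 miR-501KO mice (red), with bars for mean ± SD. The genotypes overlap in each panel, and Pax7Cre mouse 2 (upward triangle) is the highest of the 10 mice for *Trim63*, *Trim54*, *Trim55*, *Fbxo32*, *Mul1*, *Foxo4* and *Klf15*.

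The MuRF ligases are RING-type ligases that bind to the sarcomere. *Trim63* (ENSMUSG00000028834, GRCm38 chr4:134315120-134329629, plus strand) encodes MuRF1, which marks thick filament proteins for degradation. Its level was 60.0, 100.0, 57.3, 39.4 and 60.3 CPM in Pax7Cre mice 1 to 5 and 55.1, 53.0, 51.3, 77.8 and 59.5 CPM in miR-501KO mice 1 to 5. All miR-501KO mice lay within the range of the controls, which was set by mouse 4 below and mouse 2 above. The mean was 63.4 ± 22.2 CPM in Pax7Cre and 59.4 ± 10.7 CPM in miR-501KO (SD, n = 5 each). The log2 fold change was -0.095 ± 0.20 (SE), with a 95% interval from -0.53 to 0.34, which as a fold runs from 0.693 to 1.27. The 2-sided exact permutation test gave p = 0.730, where 5 mice against 5 can reach 0.00794.

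*Trim54* (chr5:31116712-31137630, plus strand) encodes MuRF3, a MuRF that also binds microtubules. It was read at 49.5, 109.8, 38.8, 44.2 and 61.7 CPM in the Pax7Cre mice and at 44.1, 48.8, 51.5, 89.1 and 61.3 CPM in the miR-501KO mice. Mouse 2 of the controls and mouse 4 of the knockouts stood above the rest of their groups. Its interval was the widest among the ligases, with a log2 fold change of -0.045 ± 0.27 (SE, 95% interval -0.63 to 0.54). *Trim55* (chr3:19644474-19692421, plus strand), encoding MuRF2, was by contrast among the steadiest of the 10 genes. It ranged from 47.8 to 59.4 CPM in Pax7Cre and from 46.7 to 56.3 CPM in miR-501KO, a range of 1.27-fold over all mice. Its log2 fold change was -0.012 ± 0.079 (SE), so that the 95% interval, -0.18 to 0.16, left room only for differences of a fold between 0.880 and 1.12. *Trim55* holds one of the 2 seed matches printed above.

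*Fbxo32* (ENSMUSG00000022358, chr15:58175879-58214932, minus strand) encodes atrogin-1, the substrate-binding part of an SCF ligase. Its values were 28.4, 59.5, 36.2, 28.1 and 36.1 CPM in Pax7Cre and 32.1, 33.1, 34.8, 46.3 and 31.6 CPM in miR-501KO. The other 8 mice lay between 28.1 and 36.2 CPM, with the high values again in Pax7Cre mouse 2 and miR-501KO mouse 4. The means were 37.7 ± 12.8 and 35.6 ± 6.12 CPM (SD, n = 5 each), with a log2 fold change of -0.081 ± 0.19 (SE, 95% interval -0.49 to 0.33). *Fbxo30* (chr10:11281330-11298052, plus strand) encodes an F-box ligase known as MUSA1, which BMP signalling holds down. It stayed between 17.7 and 23.8 CPM in Pax7Cre and between 18.4 and 21.3 CPM in miR-501KO, and its log2 fold change was -0.022 ± 0.086 (SE, 95% interval -0.21 to 0.16). *Mul1* (chr4:138434671-138442265, plus strand) encodes a ligase of the outer mitochondrial membrane that acts on mitofusin. It ran from 23.3 to 36.3 CPM in Pax7Cre and from 25.4 to 33.4 CPM in miR-501KO. Its means were equal to 3 digits, 29.5 CPM in both genotypes, and the 95% interval of its log2 fold change was -0.24 to 0.24.

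The FoxO factors were compared next. *Foxo1* (chr3:52268336-52353221, plus strand) encodes the FoxO factor whose overexpression in muscle is known to cause atrophy. It measured 22.4, 24.1, 22.9, 27.0 and 28.5 CPM in Pax7Cre and 24.1, 24.9, 24.4, 23.3 and 26.7 CPM in miR-501KO. No mouse stood apart, and Pax7Cre mouse 2 was in the middle of its group. The log2 fold change was -0.017 ± 0.082 (SE, 95% interval -0.20 to 0.16). *Foxo3* (chr10:42181841-42276755, minus strand), a known inducer of atrogin-1 and of autophagy genes, measured 37.7, 42.8, 42.1, 51.9 and 49.1 CPM in Pax7Cre and 36.5, 43.3, 46.9, 43.2 and 49.5 CPM in miR-501KO. Its highest value was in Pax7Cre mouse 4, the mouse with the lowest *Trim63*, and the log2 fold change was -0.028 ± 0.10 (SE, 95% interval -0.25 to 0.19). Like *Trim55*, *Foxo3* carries a seed match in its 3′ UTR, and the log2 fold changes of the pair lay at -0.028 and -0.012.

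*Foxo4* (chrX:101254528-101260873, plus strand), the X-linked FoxO gene, measured 57.2, 69.6, 55.8, 55.2 and 56.2 CPM in Pax7Cre and 49.8, 54.8, 52.6, 61.4 and 56.3 CPM in miR-501KO. Only 2 of the 5 miR-501KO mice lay within the control range, since 3 fell below its lower end, yet the groups overlapped. Its log2 fold change of -0.097 ± 0.084 (SE, 95% interval -0.28 to 0.085) was the lowest of the 10. It was below 0 whichever mouse was left out, but moved to -0.032 without Pax7Cre mouse 2. *Foxo6*, the remaining FoxO gene and not one of the 10, measured 8.84 ± 1.58 CPM in Pax7Cre and 7.28 ± 1.10 CPM in miR-501KO (SD, n = 5 each). Its log2 fold change was farther below 0, at -0.28 ± 0.14 (SE), with an unadjusted p of 0.0723 and an adjusted p of 1.00 by edgeR.

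*Klf15* (chr6:90462576-90475238, plus strand) encodes a Krüppel-like factor induced by glucocorticoids that acts on branched-chain amino acid breakdown and on both atrophy ligases. It had the fewest counts and the largest spread of the 10. The Pax7Cre mice measured 5.15, 12.7, 5.07, 3.65 and 4.26 CPM and the miR-501KO mice 4.52, 5.29, 6.25, 6.89 and 6.10 CPM. Mouse 2 of the controls lay far above all other mice, and without it 4 of the 5 miR-501KO mice lie above the highest control. The log2 fold change was -0.078 ± 0.29 (SE, 95% interval -0.71 to 0.56) with all mice and 0.36 without Pax7Cre mouse 2, where the unadjusted p was 0.0388 and the adjusted p 1.00 by edgeR. That is the single unadjusted p under 0.05 that leaving out a mouse gave for the 10 genes.

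**Figure D2:**
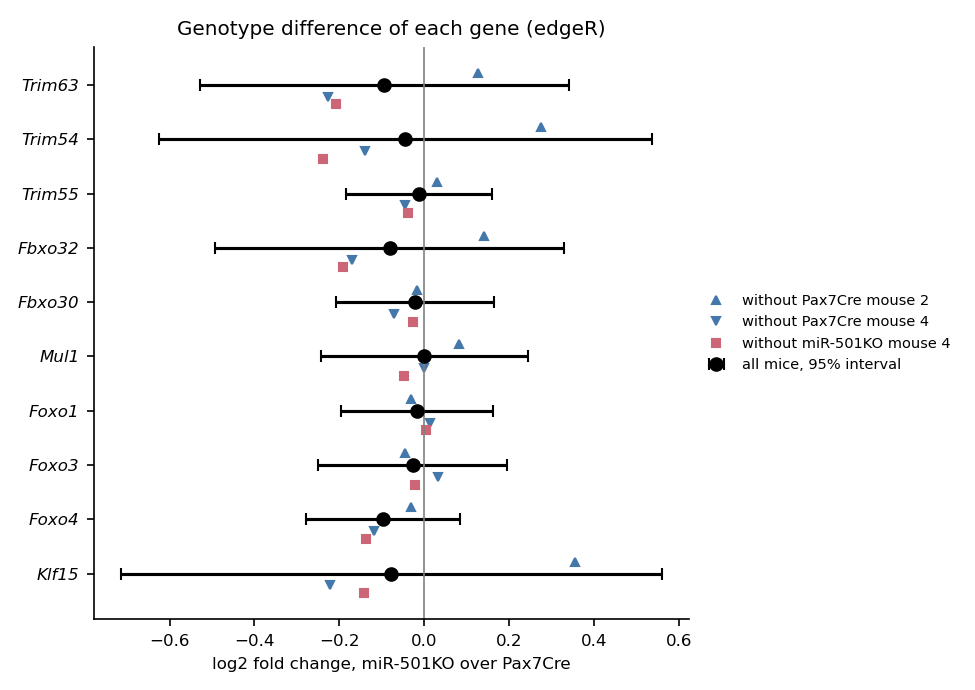
Log2 fold change, miR-501KO over Pax7Cre (horizontal axis), of each of the 10 genes, with the 95% interval of edgeR's fit (black) and the value after leaving out 1 mouse (colored). The intervals of *Trim55*, *Fbxo30*, *Foxo1* and *Foxo4* are narrow, those of *Trim54* and *Klf15* wide, and leaving out Pax7Cre mouse 2 moves *Klf15* from -0.078 to 0.36.

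The spread between mice of a genotype differed widely among the 10 genes. The pooled SD within genotypes on the log2 scale was 0.51 for *Klf15*, 0.50 for *Trim54*, 0.38 for *Trim63* and 0.35 for *Fbxo32*, against a median of 0.19 over all tested genes. These 4 spreads lay at or above the 84.0th percentile of all genes. *Trim55*, *Foxo1*, *Fbxo30* and *Foxo4* had SDs of 0.12 to 0.13, at the 18.5th to 23.6th percentile. All 10 genes varied more among the Pax7Cre mice than among the miR-501KO mice, which also held for 79.2% of all tested genes.

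Per length of exon, the 10 genes covered a wide range of levels. *Trim54* was highest, with 41.7 ± 15.7 CPM per kb (SD, n = 10 mice), followed by *Trim63* with 21.6 ± 5.84, *Trim55* with 19.8 ± 1.51 and *Foxo4* with 16.3 ± 1.54 CPM per kb. *Trim54* was above *Trim63* in 10 of 10 mice, whereas *Trim63* and *Trim55* changed places, with *Trim63* above in 7 of 10. A gap without overlap separated these 4 genes from *Mul1* at 7.37 ± 0.943, *Foxo3* at 5.85 ± 0.666, *Fbxo32* at 5.25 ± 1.37 and *Fbxo30* at 3.91 ± 0.321 CPM per kb. *Foxo3* was above *Fbxo32* in 8 of 10 mice, so their order was not settled. *Foxo1*, at 2.87 ± 0.227, and *Klf15*, at 2.14 ± 0.910 CPM per kb, came last. Atrogin-1 mRNA was thus present at a lower level per length than each of the MuRF mRNAs.

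**Figure D3:**
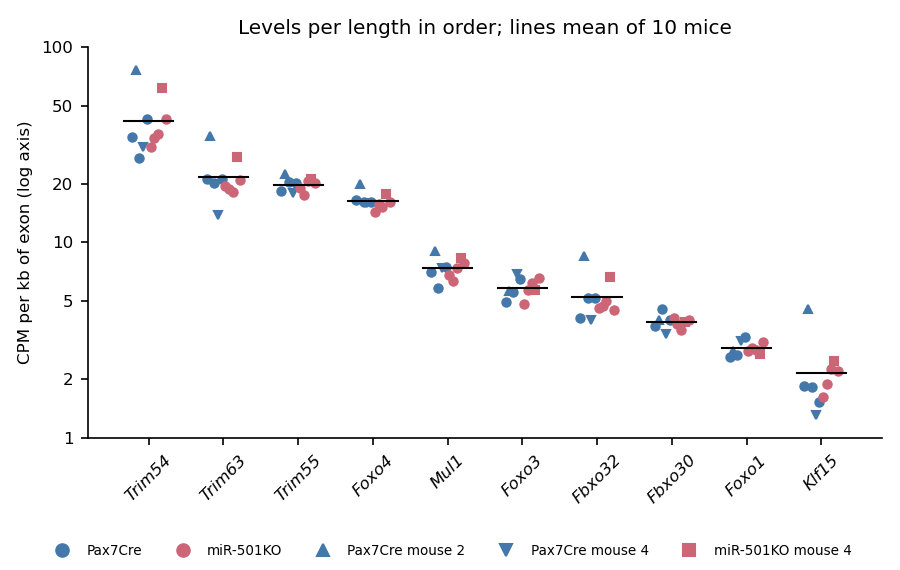
CPM per kb of exon (log axis) of the 10 genes in order of their mean, 1 point per mouse, with Pax7Cre in blue and miR-501KO in red and a line at the mean of 10 mice. *Trim54* leads at 41.7 CPM per kb, and a gap lies between *Foxo4* at 16.3 and *Mul1* at 7.37.

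Shares within a family do not depend on the scaling between libraries. Per length, *Trim63* made up 26.4 ± 3.01% of the 3 MuRF genes in Pax7Cre and 25.7 ± 1.58% in miR-501KO (SD, n = 5 each, exact permutation p = 0.683). *Trim54* held 40.0% to 57.1% of the MuRF sum over the 10 mice. *Foxo1* made up 11.3 ± 1.14% of *Foxo1*, *Foxo3* and *Foxo4* in Pax7Cre and 11.7 ± 0.872% in miR-501KO (exact permutation p = 0.476), while *Foxo4* held 61.3% to 70.3% over the mice. *Fbxo32* was 19.7 ± 2.28% of *Fbxo32* and *Trim63* together in Pax7Cre and 19.7 ± 1.42% in miR-501KO (exact permutation p = 0.992). After adjustment over the 3 shares each p was 0.992.

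The mature fiber score, the mean log2 CPM of the 20 mature fiber markers with each centered on its mean, ran from -0.61 in Pax7Cre mouse 4 to 0.78 in Pax7Cre mouse 2. None of the 10 genes is among the 20 markers. Over the 10 mice, 7 of the 10 genes followed this score. Pearson's r was 0.931 for *Trim54*, 0.926 for *Trim63*, 0.904 for *Klf15*, 0.868 for *Fbxo32*, 0.780 for *Trim55*, 0.753 for *Mul1* and 0.743 for *Foxo4*. The permutation p adjusted over the 20 relations computed was 0.0042 to 0.036 for these 7. *Fbxo30*, *Foxo1* and *Foxo3* had r of 0.208, -0.144 and -0.095, with adjusted p of 0.712 to 0.84 by permutation, and whether their r differs from that of the other 7 was not tested. An r of at least 0.743 was common in these muscles, being reached by 10.6% of the 14390 tested genes outside the score.

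By rank, the relation passed the permutation test for *Trim54* (Spearman's rho 0.903, adjusted p 0.0168) and *Mul1* (rho 0.830, adjusted p 0.0379). The other 5 had rho of 0.552 to 0.758 with adjusted p of 0.0733 to 0.205. Without Pax7Cre mice 2 and 4, the mice farthest from the median of the score, r was 0.968 for *Trim54* (exact permutation p = 0.000273, unadjusted, 8 mice) and 0.921 for *Mul1* (exact permutation p = 0.00139). It was 0.690 for *Trim63*, 0.647 for *Klf15*, 0.613 for *Fbxo32*, 0.543 for *Foxo4* and 0.527 for *Trim55*, with exact permutation p of 0.0729 to 0.185. The relation with the score thus passed the test without the extreme mice for *Trim54* and *Mul1*. For the other 5, r stayed above 0 over the 8 mice but did not pass the test, which then had 2 mice fewer. Without the same mice, r was -0.378 for *Fbxo30*, 0.275 for *Foxo1* and 0.465 for *Foxo3* (exact permutation p of 0.248 to 0.509). Taken as deviations from the genotype means, r over the 10 mice was 0.760 to 0.952 for the 7 genes, a measure from which any difference between genotypes is removed. The mitochondrial share of counts was highest and lowest in the same mice as the score, and its part in the relation was not tested.

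**Figure D4:**
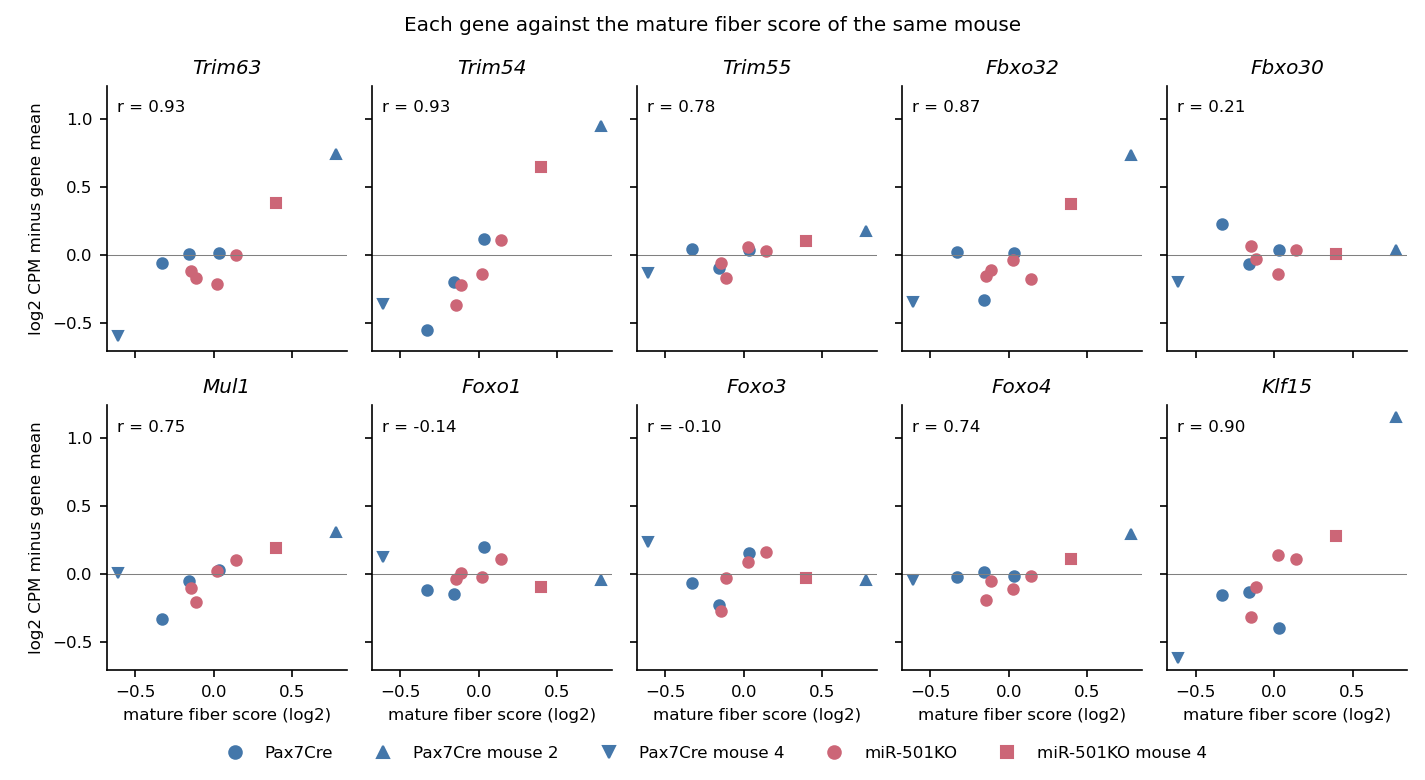
Log2 CPM minus the gene's mean (vertical axis) against the mature fiber score of the same mouse (horizontal axis, log2) for each of the 10 genes, with Pearson's r. Without Pax7Cre mice 2 and 4 (triangles) r is 0.968 for *Trim54* and 0.921 for *Mul1*, and over all mice it is 0.208 for *Fbxo30*, -0.144 for *Foxo1* and -0.095 for *Foxo3*.

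Among *Fbxo32*, *Trim63*, *Klf15*, *Foxo1* and *Foxo3*, all 10 pairs were compared. *Fbxo32* and *Trim63*, the classical pair of atrophy ligases, had r = 0.886 (adjusted permutation p 0.00804, rho 0.612 with adjusted p 0.168), but 0.446 without Pax7Cre mouse 2 and miR-501KO mouse 4. *Klf15* had r of 0.856 with *Fbxo32* and 0.867 with *Trim63* (adjusted permutation p 0.0123 and 0.00843), and these were 0.311 and 0.399 without the 2 farthest mice. By rank, neither pair passed, with rho of 0.564 and 0.467 (adjusted permutation p 0.205 and 0.324). The 4 pairs of *Foxo1* or *Foxo3* with their known target genes *Fbxo32* and *Trim63* had r of -0.342 to -0.071 (adjusted permutation p of 0.522 to 0.85). *Foxo1* and *Foxo3* went with each other, at r = 0.783 and rho = 0.818 (adjusted permutation p 0.0163 and 0.0379), and at r = 0.670 without Pax7Cre mice 4 and 5 (exact permutation p = 0.0672, 8 mice).

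The genes whose log2 CPM over the 10 mice was most like that of an atrophy gene are given as a description. For *Trim63* these were *Snurf*, *Pdhx*, which encodes a component of the pyruvate dehydrogenase complex, and *Pcca*, a subunit of propionyl-CoA carboxylase, with r of 0.984, 0.982 and 0.982. *Fbxo32* itself ranked 539th by likeness to *Trim63*. For *Fbxo32* they were the co-chaperone gene *Dnaja4*, the NAD synthesis gene *Nmnat1* and *Ccdc9b*, with r of 0.967, 0.962 and 0.962. For *Klf15* they were *Isca1*, a gene of mitochondrial iron-sulfur assembly, *Spryd4* and *Dusp22*, with r of 0.978, 0.966 and 0.954. Each of these 9 genes was highest in Pax7Cre mouse 2. For *Foxo1* they were *Pear1*, *Kdm6b*, a histone demethylase gene, and *Zfhx3*, with r of 0.961, 0.947 and 0.942.

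The wider pathway was read in the same way. Of 150 listed genes of ubiquitin ligation, the proteasome, FoxO signalling, autophagy and related steps, 149 were tested. Of these, 0 passed the adjusted p, 0 were higher and 1 was lower at the unadjusted p, which is 0.671% against 1.05% of all genes. Leaving out 1 mouse gave 0 to 5 such pathway genes, and the 5, found without Pax7Cre mouse 2, were 3.36% of the pathway genes against 3.12% of all genes. With all mice the 1 gene was *Cdkn1b*, a FoxO target that encodes the cell cycle inhibitor p27. It measured 51.3 ± 2.60 CPM in Pax7Cre and 46.0 ± 1.83 CPM in miR-501KO (SD, n = 5 each). On the log2 scale the difference was -0.16 ± 0.063 (SE) with an unadjusted p of 0.0268 and an adjusted p of 1.00 by edgeR. Leaving out 1 mouse moved its unadjusted p by edgeR between 0.0168 and 0.0720, past 0.05 without Pax7Cre mouse 2 or 3 or miR-501KO mouse 3, 4 or 5, while its log2 fold change stayed between -0.18 and -0.14. The median log2 fold change over the 149 genes was -0.0054.

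Among the 17 other muscle ubiquitin ligases, 6 had a log2 fold change above 0 and 11 below, with a median of -0.012 and a range from -0.12 for *Fbxo21* to 0.053 for *Fbxo40*. The lowest p among those above 0 was that of *Huwe1*, which encodes a large HECT ligase, at 0.051 ± 0.10 (SE, unadjusted p 0.620 by edgeR). The list of ubiquitin, E1 and E2 enzymes and SCF partners, with which atrogin-1 assembles, also held ubiquitin-specific protease genes. Its 16 genes had 8 on each side and a median of -0.0012. *Ube2l3*, an E2 enzyme gene, was at 0.078 and *Cul1*, the scaffold of the SCF ligase, at -0.046. The 31 proteasome subunits, the machine that degrades the marked proteins, lay between -0.092 for *Psma3* and 0.12 for *Psmb5*, with a median of 0.0068. Of the proteasome genes 19 lay above 0 and 12 below.

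Among the 22 genes of signalling upstream of FoxO, *Foxo6* counted with them, 17 lay below 0 with a median of -0.035. The lowest was *Mstn*, encoding myostatin, at -0.32, and the highest *Sirt1*, encoding a FoxO deacetylase, at 0.15. *Sirt1* measured 12.0 ± 0.494 CPM in Pax7Cre and 13.4 ± 0.933 CPM in miR-501KO (SD, n = 5 each), with an unadjusted p of 0.0814 by edgeR. The 15 FoxO targets outside proteolysis, *Cdkn1b* among them, had 9 below 0 and a median of -0.013. Among those above 0, *Eif4ebp1*, encoding a repressor of translation, had the lowest p, at 0.13 ± 0.081 (SE, unadjusted p 0.136 by edgeR). The 23 autophagy genes lay between -0.099 for *Atg14* and 0.083 for *Ulk1*. The 10 glucocorticoid and KLF15 targets held the widest values, from -0.40 for *Zbtb16* to 0.41 for *Per1*, a clock gene, whose unadjusted p were 0.226 and 0.180 by edgeR. The 5 genes of mitochondrial dynamics, the process on which *Mul1* acts, lay between -0.060 for *Mfn1* and 0.028 for *Fis1*. The 3 tested regulators of the response to denervation lay between -0.034 for *Hdac4* and 0.092 for *Myog*, with *Hdac5* at -0.028. Of the 7 ligase substrates, 6 lay above 0 with a median of 0.038, and the highest was *Mybpc2*, a myosin-binding protein of fast fibers, at 0.25 ± 0.30 (SE). The 1 substrate below 0 was *Eif3f*, a translation initiation factor gene that atrogin-1 is known to target, at -0.062 ± 0.079 (SE).

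**Figure D5:**
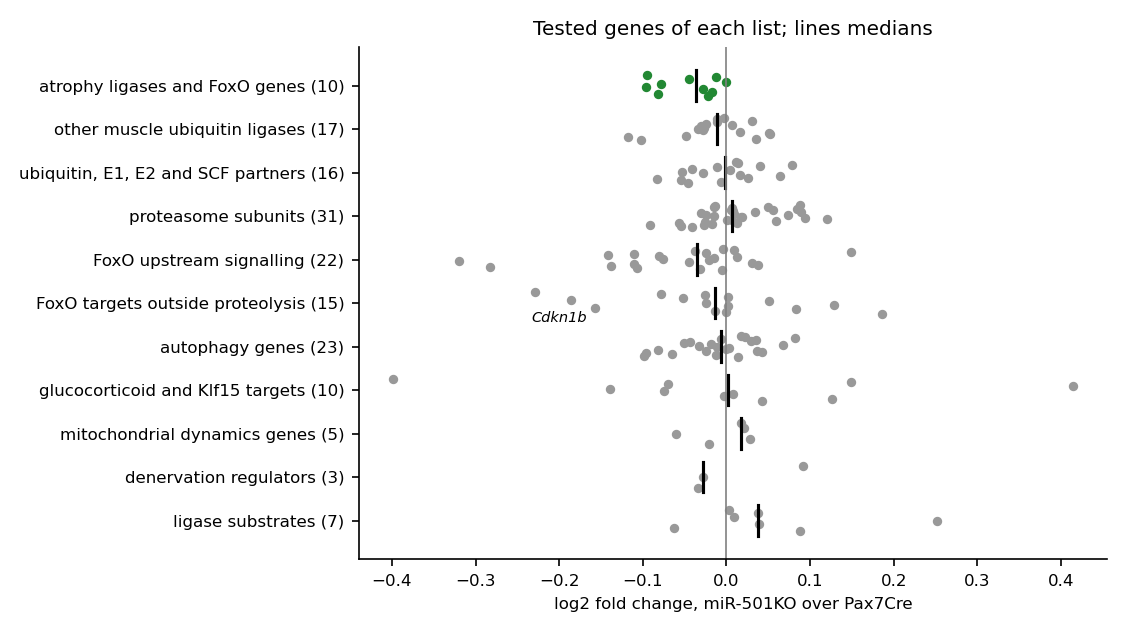
Log2 fold change, miR-501KO over Pax7Cre (horizontal axis), of each tested gene in the 10 atrophy genes (green) and in 10 lists of related genes (grey), with the number of genes in parentheses and a line at the median of each list. The medians lie close to 0, and *Cdkn1b*, at -0.16, is the 1 gene with an unadjusted p under 0.05.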

How the data were processed

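Whole TA muscle of 10 mice was sequenced as 100-base single-end reads from stranded mRNA libraries. Alignment by the authors was with STAR and a gene annotation called ENCODE release 91. The submitters' processing notes list GRCm38.p5, STAR, featureCounts and R 3.5.1. The deposited values are raw counts per gene and mouse with no normalization, and the strand setting of the counting is not given in the sources used here. Without it, reads of *Trim54*, *Fbxo32* and *Foxo1* cannot be told apart from those of the antisense genes that overlap them by 382, 186 and 674 exon bases, none of which is listed. Of 25700 identifiers, 25587 matched GENCODE release M21 of GRCm38, from which positions and exon lengths were taken, while promoters and the mature miRNA came from RefSeq.

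Genes were filtered with filterByExpr (minimum count 10, minimum total 15), which left 14410, and scaled by TMM. Genotypes were then compared with the quasi-likelihood test of edgeR 4.0.16 (R 4.3.3), and p-values were adjusted by Benjamini-Hochberg over all genes tested. The 95% intervals use that fit. Shares and CPM were compared by 2-sided exact permutation tests over all splits of the mice. Correlations were computed with scipy 1.17.1 and tested by 100000 permutations. DESeq2 1.42.0 was an alternative. The edgeR comparison was tested on simulated counts drawn independently for each gene, so variation shared by genes within a mouse was not part of that test. Groups came from the labels, and mice of a genotype were taken as separate animals. No 2 libraries of a genotype agreed within counting noise (the lowest chi-square per degree of freedom over genes was 9.47). Totals per mouse were 18609222 to 24753258 counts, and the precision of the comparisons followed from the spread between mice.

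The 10 genes, the pathway lists and the marker lists were chosen with earlier results of these data known. Named beside the 10 were *Foxo6*, the gene with the lowest p in each direction of each pathway list, any pathway gene at an unadjusted p under 0.05, the 3 genes most like *Fbxo32*, *Trim63*, *Klf15* and *Foxo1*, and the most abundant gene of each marker list. *Fbxo40*, *Mstn* and *Hdac4*, the extreme values of their lists, were named after their values were seen. The alternatives were other scalings, filters and tests, the mouse number as a block, the mature fiber score as a covariate, and leaving out each mouse in turn.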

Additional observations from a re-analysis of the deposited data

Results flagged for a closer look

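In 4 of 36 groups of 5 mice searched, 1 mouse lay apart from the other 4 by Dixon's criterion. Chance would give about 1.8 groups if the groups were independent. Several of the measures moved together over the mice, and 3 of the 4 groups had the same mouse apart, Pax7Cre mouse 2. The 2 numbers therefore cannot show an excess. *Fbxo32* measured 59.5 CPM in Pax7Cre mouse 2 against 28.1 to 36.2 CPM in the other controls, and 46.3 CPM in miR-501KO mouse 4 against 31.6 to 34.8 CPM in the other knockouts. *Foxo4* measured 69.6 CPM in Pax7Cre mouse 2 against 55.2 to 57.2 CPM. *Klf15* measured 12.7 CPM in the same mouse against 3.65 to 5.15 CPM. The mature fiber score was 0.78 in Pax7Cre mouse 2 and 0.39 in miR-501KO mouse 4, each the highest of its genotype.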

How the results depend on the processing

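None of the 10 genes passed an adjusted p of 0.05 under any of the 19 alternatives, and *Foxo4* alone kept its sign in all of them. The number of genes called overall at that threshold was 0 except with edgeR's likelihood ratio test, which called 19. At the unadjusted p, genes higher and lower numbered 153 and 159 without a filter, 283 and 201 with the mature fiber score as covariate, and 123 and 131 with the likelihood ratio test. Genes higher numbered 36 with at least 10 counts in every mouse and 87 with the replicate block. Leaving out each mouse gave 39 to 267 higher and 59 to 242 lower, with 267 and 186 without Pax7Cre mouse 2, 228 and 242 without Pax7Cre mouse 4, and 59 lower without miR-501KO mouse 1. Pathway genes at the unadjusted p, 1 with all mice, numbered 7 with the score as covariate (4.7% against 3.36% of all genes), 3 with the replicate block (2.01% against 1.31%) and 2 with the likelihood ratio test (1.34% against 1.76%), and none passed the adjusted p under any alternative. Leaving out each mouse gave 0 to 1 of the 10 genes at the unadjusted p and 0 to 6 with a log2 fold change above 0.

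Leaving out each mouse moved the log2 fold change of *Trim63* between -0.23 and 0.13, *Trim54* between -0.24 and 0.27, *Trim55* between -0.046 and 0.031, *Fbxo32* between -0.19 and 0.14, *Fbxo30* between -0.072 and 0.037, *Mul1* between -0.072 and 0.082, *Foxo1* between -0.054 and 0.034, *Foxo3* between -0.084 and 0.033, *Foxo4* between -0.14 and -0.032 and *Klf15* between -0.22 and 0.36. The share of *Trim63* moved between -1.71 and 0.217 percentage points, knockout minus control, that of *Fbxo32* between -0.846 and 0.735, and that of *Foxo1* between 0.0845 and 0.808.

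With the replicate block *Trim54* was at 0.017, *Mul1* at 0.0076 and *Klf15* at 0.046, and it changed no call among the 10. With it the unadjusted p of *Cdkn1b* was 0.0528, and with the likelihood ratio test 0.194. *Foxo6* passed an unadjusted p of 0.05 by edgeR with the block, without Pax7Cre mouse 1 and without miR-501KO mouse 2. *Per1* passed it with the block, with the likelihood ratio test and without miR-501KO mouse 3. *Zbtb16* passed it with the likelihood ratio test and with the mature fiber score as covariate. None of these genes passed the adjusted p in these settings. The labels do not say that equally numbered mice are pairs, so the numbers were not taken as pairs. Deviations from the genotype means had correlations of -0.30 to 0.34 between equally numbered mice, and 3 of 5 correlated best with their own number. Whether the numbers stand for pairs was not settled by this. With the mature fiber score as covariate all 10 log2 fold changes lay below 0, with *Trim63* at -0.15 ± 0.078 (SE, unadjusted p 0.0715 by edgeR), *Foxo4* at -0.13 ± 0.060 (0.0543), *Fbxo32* at -0.13 ± 0.095 (0.177) and *Trim54* at -0.13 ± 0.10 (0.233), and the SE of *Trim63* was 0.20 without the score. Without the 2 farthest mice, r changed sign for the score with *Fbxo30* (-0.378), *Foxo1* (0.275) and *Foxo3* (0.465), and for *Fbxo32* with *Foxo1* (0.0688) and *Foxo3* (0.0726), *Trim63* with *Foxo3* (0.0241) and *Klf15* with *Foxo3* (0.281). The cause of these changes was not tested. With 5 mice a genotype the 95% intervals leave room for a fold, knockout over control, of 0.610 to 1.47 for *Klf15* and 0.648 to 1.45 for *Trim54*, but of 0.866 to 1.12 for *Fbxo30*, 0.873 to 1.12 for *Foxo1* and 0.880 to 1.12 for *Trim55*.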
